A study of Mus musculus with 2 samples.

Results

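Interleukin-10 and the genes through which it is sensed and switched on in macrophages were followed in mononuclear phagocytes of B16 melanoma tumors. The genes were Il10 itself, Il10ra and Il10rb for the chains of its receptor, and Maf for the transcription factor c-Maf. They are 4 of the 27998 genes listed in the count matrices and were found there by symbol. They were chosen by their measured levels, shares of cells and co-expression by genotype and macrophage state, with earlier results of these data known, so all values below are a description with no test.

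Tumors grown from B16, a transplantable mouse melanoma line, were taken from C57Bl/6 mice with intact Fcmr (Fcmr+/+) or without it (Fcmr-/-), and the study asked how the phagocytes of the tumor differ between them. Fcmr encodes a receptor for the Fc part of IgM. Phagocytes carrying MerTk and CD64 were sorted from dissociated tumors, and 1 droplet library was made per genotype with a 3' kit that marks each captured molecule with a unique molecular identifier (UMI). The number and age of the mice behind each library are not given in the sources used here, so the spread between mice is unknown and the genotype cannot be told apart from the library.

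The Fcmr+/+ library kept 6352 of 6392 cells and the Fcmr-/- library 7999 of 8017 after filters on genes and mitochondrial UMIs. The median cell held 17974 UMIs in the Fcmr+/+ library and 12911 in the Fcmr-/- library, and 73 cell barcodes occurred in both. Because the cells differed in depth, shares of cells were taken after every cell was thinned to 6643 UMIs. This dropped 151 shallower cells of the Fcmr+/+ library and 800 of the Fcmr-/- library. Levels are CPM, the UMIs of a gene summed over cells, divided by all UMIs of those cells and multiplied by 1000000, and log2 ratios of Fcmr-/- to Fcmr+/+ were taken after adding 1 CPM. Intervals are exact at 95%, Poisson for CPM and Clopper-Pearson for shares of cells. They cover counting error only and not the spread between mice, and UMIs of the same cell are not independent draws.

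IL-10 is a secreted cytokine that dampens inflammatory gene expression, and macrophages both make it and respond to it. It binds the ligand-specific chain IL-10R1, made from Il10ra, which pairs with IL-10R2, a chain made from Il10rb and shared with related cytokines. The kinases Jak1 and Tyk2 at these chains activate Stat3. c-Maf binds the Il10 promoter in macrophages and is also part of the program of tissue-resident macrophages.

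On GRCm38, Il10 (ENSMUSG00000016529) lies on the plus strand at chr1:131019845-131024974, and its start is 139 kb past the end of Fcmr on the same strand. Il10ra (ENSMUSG00000032089) lies on the minus strand at chr9:45253837-45269149. Il10rb (ENSMUSG00000022969) lies on the plus strand at chr16:91406164-91425834. There it overlaps Gm21970 on the same strand at chr16:91391721-91419451, which had 0 UMIs in both libraries. Maf (ENSMUSG00000055435) lies on the minus strand at chr8:115682942-115707794. Its antisense gene Gm15655 had 87 Fcmr+/+ and 134 Fcmr-/- UMIs, against 53162 and 55276 for Maf.

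Of the ligand, the receptor and the regulator, only the ligand differed by at least 2-fold between the libraries. Il10 stood at 116 CPM (114 to 118) in Fcmr+/+ cells, from 14938 UMIs, and at 49.6 CPM (48.4 to 50.9) in Fcmr-/- cells, from 6182 UMIs. It was thus 2.35-fold lower in the Fcmr-/- library (2.28 to 2.42), a log2 ratio of -1.21. Of 8701 genes with at least 5 CPM in either library, 0.287% were at least 2-fold lower in Fcmr-/- cells and 0.793% at least 2-fold higher, and 1 of the 4 genes was among the first and 0 among the second. The median log2 ratio over those 8701 genes was 0.00, with 4306 lower and 4395 higher in Fcmr-/- cells. Counts of lower and higher genes in the lists further on are to be read beside this split.

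Both receptor chains and Maf differed little. Il10ra stood at 47.4 CPM (46.2 to 48.6) in Fcmr+/+ and 44.7 (43.5 to 45.9) in Fcmr-/- cells, a log2 ratio of -0.08 whose intervals did not overlap. Il10rb stood at 168 CPM (166 to 171) and 170.2 (168 to 173), with overlapping intervals. Maf stood at 414 CPM (411 to 418) in Fcmr+/+ and 444 (440 to 447) in Fcmr-/- cells, a log2 ratio of 0.10 in the opposite direction to Il10. Without clusters 1 and 8, described further on, the log2 ratio of Maf was 0.0046 and that of Il10 was -1.15. Levels were not compared between genes.

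Fewer Fcmr-/- cells had any Il10 UMI, and those that did had fewer of them. At equal depth an Il10 UMI was found in 22.8% of Fcmr+/+ cells (21.8 to 23.9) and in 13.02% of Fcmr-/- cells (12.2 to 13.8). Without thinning the shares were 34.5% and 19.5%. Thinned cells that had one held a mean of 3.14 Il10 UMIs in the Fcmr+/+ and 2.63 in the Fcmr-/- library, with medians of 2 and 1.

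In relative terms the gap between the libraries was wider among cells rich in Il10. Cells with 1 Il10 UMI made up 9.89% of Fcmr+/+ and 6.93% of Fcmr-/- cells. Cells with 5 to 9 made up 3.92% and 1.60%, and cells with 10 or more made up 1.13% (70 cells) and 0.375% (27 cells). The largest count in a thinned cell was nonetheless in the Fcmr-/- library, at 33 UMIs against 24.

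**Figure D1:**
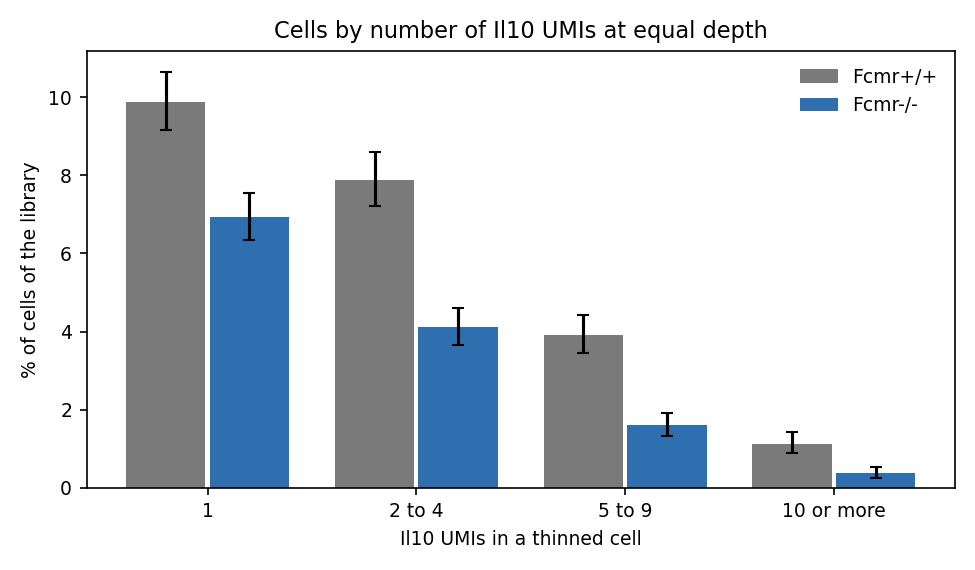
Share of cells of each library (%, vertical axis) by the number of Il10 UMIs in a cell thinned to 6643 UMIs (horizontal axis), with bars for Fcmr+/+ (gray) and Fcmr-/- (blue) and lines for exact 95% intervals of counting error. The Fcmr-/- bar is lower in each of the 4 classes, from 6.93% against 9.89% at 1 UMI to 0.375% against 1.13% at 10 or more; cells with 0 UMIs are not drawn.

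Il10 was concentrated in few cells of both libraries. The 5% of thinned cells with the most Il10 held 56.1% of its UMIs in the Fcmr+/+ and 73.5% in the Fcmr-/- library. An Il10 UMI was found in 22.8% and 13.02% of cells, so this 5% is a larger part of the cells with Il10 in the Fcmr-/- library. The values thus do not compare how Il10 was spread among cells that had it. Of the 14351 cells kept, 27 had under 5 UMIs from 7 macrophage genes, which include those of the sort. Of these, 0 of 27 had an Il10 UMI, which allows a share of cells with a UMI of up to 11.1% when a count of 0 is taken to allow 3, at a median of 10009 UMIs per cell. A Maf UMI was found in 6 of the 27.

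For the receptor chains and Maf the thinned shares stayed close. An Il10ra UMI was found in 27.4% of Fcmr+/+ cells (26.34 to 28.6) and 25.2% of Fcmr-/- cells (24.2 to 26.26), and these intervals lay just apart. Il10rb was found in 64.4% (63.2 to 65.6) and 66.2% (65.1 to 67.3), and Maf in 80.0% (79.0 to 81.0) and 81.4% (80.5 to 82.3), with overlap for both. Without thinning, the shares were 53.0% and 44.3% for Il10ra, 87.6% and 85.4% for Il10rb and 90.9% and 88.5% for Maf, so Il10rb and Maf changed direction with depth.

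In the Fcmr+/+ library, Il10 made up less of the RNA in shallow than in deep cells. In cells under 10000 UMIs, Il10 stood at 58.5 CPM (53.8 to 63.5) in Fcmr+/+ and 49.9 (46.9 to 53.1) in Fcmr-/- cells. From 10000 to 20000 UMIs it stood at 106 and 49.6 CPM, from 20000 to 30000 at 130 and 52.7 CPM, and from 30000 on at 125 and 45.4 CPM. The log2 ratio thus went from -0.22 in the shallowest to -1.45 in the deepest cells, and the Fcmr-/- level moved little across the 4 ranges. Clusters differ in depth too, and their part in this was not tested.

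Macrophage states were taken from clusters of both libraries together, formed without the 4 genes, and are given by number and by their leading genes. The clusters were formed anew, and their numbers were not matched to those of the study's own clusters. Of 10 clusters, Il10 was lower in Fcmr-/- cells in 7, higher in 2 and overlapping in 1. It was at least 2-fold lower in 5 of them and at least 2-fold higher in 1. Shares of genes past 2-fold in those same clusters are given beside each. Calls of lower or higher rest on intervals that lay apart, for Il10 and for the other genes further on. The share of all genes with intervals apart was not computed. Such intervals can lie apart at small ratios, as for Il10ra over all cells at a log2 ratio of -0.08. The counts of clusters alone thus do not set these genes apart from others.

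The gap in CPM was widest in the state richest in Il10. Cluster 3, led by the chemokine genes Cxcl3 and Ppbp with Il1a and Il1b among its top genes, had 235 CPM (227 to 242) in 814 Fcmr+/+ cells and 95.5 CPM (89.9 to 101) in 873 Fcmr-/- cells. That was a log2 ratio of -1.29, in a cluster where 0.326% of genes were at least 2-fold lower. At equal depth 36.3% of its Fcmr+/+ cells (33.0 to 39.7) and 17.9% of its Fcmr-/- cells (15.3 to 20.7) had an Il10 UMI. Cluster 3 had the highest Il10 CPM in both libraries.

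Cluster 7, led by Tfrc, the transferrin receptor, with Ednrb and Gas6, came next. It had 160.1 CPM (155 to 165) in 1061 Fcmr+/+ cells and 69.1 CPM (62.5 to 76.3) in 309 Fcmr-/- cells, a log2 ratio of -1.20, where 0.377% of genes were at least 2-fold lower. Its share of cells with an Il10 UMI was 33.1% and 16.7%. Cluster 6, whose leading genes Cenpf, Nusap1 and Top2a mark dividing cells, had 113 CPM (109 to 118) and 44.3 CPM (41.3 to 47.4), a log2 ratio of -1.34, where 0.325% of genes were at least 2-fold lower.

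The other clusters past 2-fold were poorer in Il10. Cluster 5, led by Acp5, Itgax and Apoe, had 39.6 CPM (36.4 to 43.0) in Fcmr+/+ and 18.6 (15.6 to 22.0) in Fcmr-/- cells, where 0.558% of genes were at least 2-fold lower. Cluster 9, led by Mfge8, a bridge to dying cells, with Ctsk, Gpnmb and Mmp12, had 58.3 CPM (48.0 to 70.1) in 105 Fcmr+/+ cells and 21.1 (18.0 to 24.7) in 564 Fcmr-/- cells, where 1.09% of genes were at least 2-fold lower. The shares of cells with an Il10 UMI in cluster 9, 9.52% and 6.92%, overlapped.

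Smaller differences in the same direction were found in the remaining pair. Cluster 2, led by Ccl17 and Il1r2, had 93.7 CPM (89.9 to 97.6) in Fcmr+/+ and 50.9 (47.1 to 55.0) in Fcmr-/- cells. Cluster 10, led by Adm and Pdgfa, had 90.8 CPM (85.0 to 96.8) and 67.0 (58.3 to 76.8), while its thinned shares of cells with Il10 overlapped, at 99 of 441 cells (18.6% to 26.6%) and 36 of 180 cells (14.4% to 26.6%). Cluster 4 showed no difference beyond counting error, with 63.0 CPM (57.7 to 68.5) and 64.5 (59.0 to 70.5). Its leading genes were the hemoglobin genes Hbb-bs and Hba-a1, with Egln3 and Slc2a1, genes of the response to low oxygen, further down. By thinned share of cells in place of CPM, Il10 was lower in Fcmr-/- cells in 5 of 10 clusters, higher in 0 and overlapping in the others.

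The states with interferon-response genes went the other way. Cluster 1, led by Iigp1, Serpina3g, Cxcl9 and guanylate-binding protein genes, had 20.5 CPM (14.7 to 28.0) in Fcmr+/+ and 43.2 (41.2 to 45.2) in Fcmr-/- cells, a log2 ratio of 1.04. There 0.876% of genes were at least 2-fold higher. The Fcmr+/+ value came from 40 UMIs in 92 cells, against 1806 UMIs in 2270 Fcmr-/- cells. Cluster 8, led by Rsad2, Cmpk2 and Ifit genes, had 30.4 CPM (24.4 to 37.4) in 234 Fcmr+/+ cells and 48.1 (43.6 to 53.0) in 786 Fcmr-/- cells, a log2 ratio of 0.65. The shares of thinned cells with an Il10 UMI overlapped in both, at 9.89% and 11.9% in cluster 1 and 9.17% and 12.6% in cluster 8.

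The number of states with higher Il10 in Fcmr-/- cells changed with how they were drawn. It was 1 of 6 clusters at resolution 0.4, 4 of 14 at resolution 1.2, 1 of 10 with 20 principal components and 3 of 10 with the 4 genes among the variable genes. When genes were scaled within each library before clustering, 11 clusters formed. Il10 was lower in Fcmr-/- cells in 10 of them, higher in 0 and overlapping in 1, with log2 ratios from -1.81 to 0.23.

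**Figure D2:**
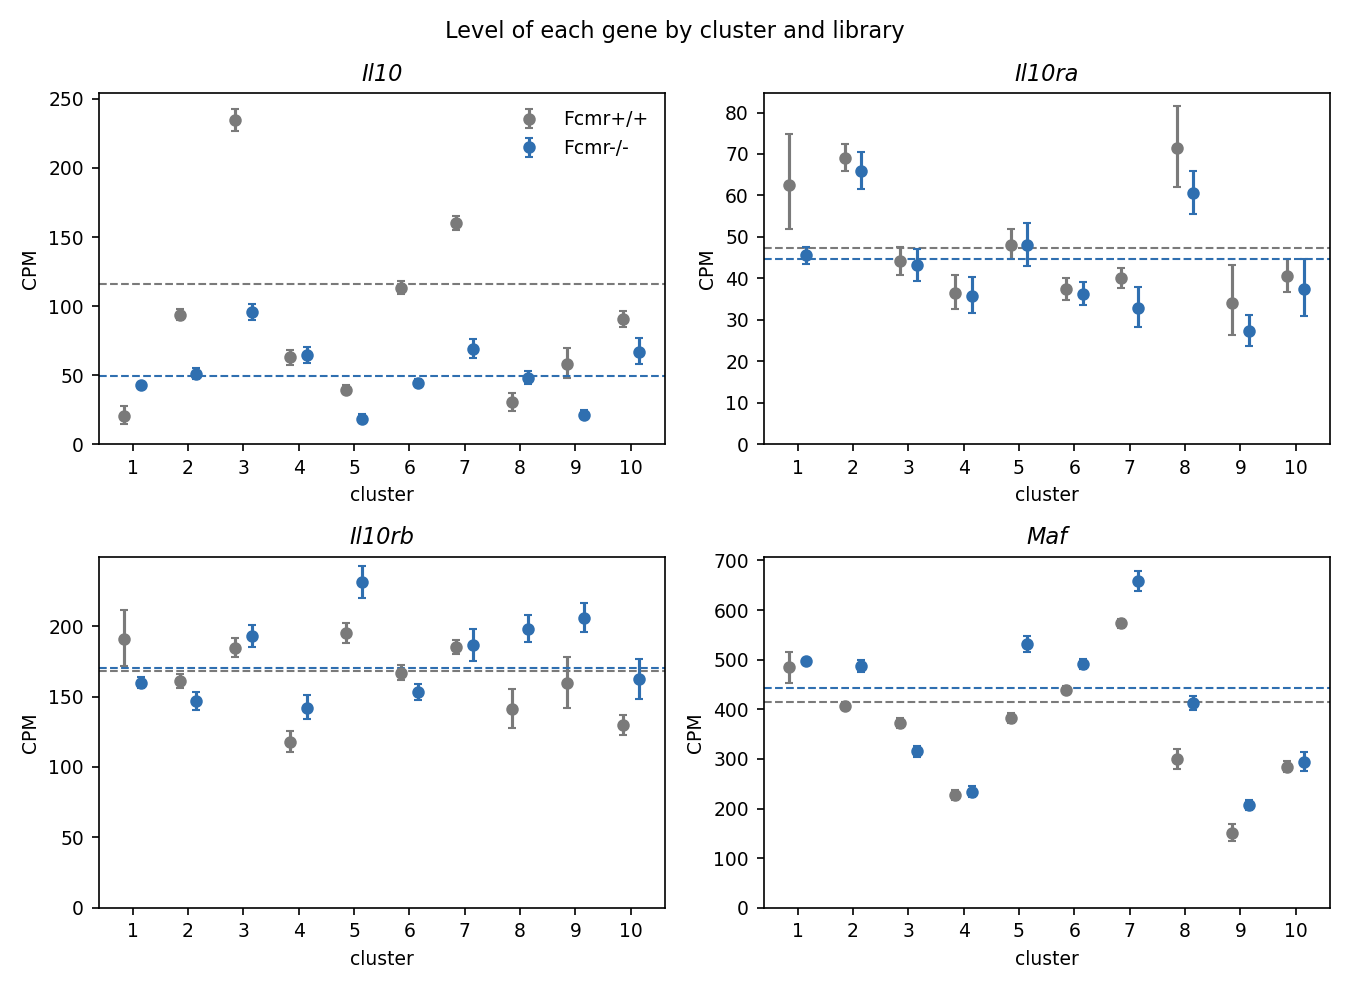
Level of each gene (CPM, vertical axes from 0, 1 panel per gene) in each of 10 clusters (horizontal axes) for Fcmr+/+ (gray) and Fcmr-/- (blue) cells, with exact 95% Poisson intervals as error bars and the level over all cells as dashed lines. Il10 in the Fcmr+/+ library runs from 20.5 CPM in cluster 1 to 235 CPM in cluster 3, while the Fcmr-/- values lie between 18.6 and 95.5 CPM; the other panels show pairs of points much closer together.

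The order of the states by Il10 differed in part between the libraries. From high to low it was clusters 3, 7, 6, 2, 10, 4, 9, 5, 8 and 1 in Fcmr+/+ cells. The intervals of clusters 2 and 10, 4 and 9, 5 and 8, and 8 and 1 overlapped. In Fcmr-/- cells it was clusters 3, 7, 10, 4, 2, 8, 6, 1, 9 and 5, and only the steps from 3 to 7, from 4 to 2 and from 1 to 9 lay beyond counting error. The highest cluster was 11.4-fold above the lowest in Fcmr+/+ cells and 5.14-fold in Fcmr-/- cells.

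Cluster sizes also differed. Cluster 7 supplied 29.1% of Il10 UMIs and 21.2% of all UMIs in the Fcmr+/+ library, against 6.41% and 4.60% in the Fcmr-/- library. Cluster 1 supplied 0.268% of Il10 UMIs and 1.52% of all UMIs in the Fcmr+/+ library, against 29.2% and 33.6% in the Fcmr-/- library. Cluster 3 supplied 23.8% of Il10 UMIs in the Fcmr+/+ and 17.6% in the Fcmr-/- library.

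With cluster sizes held equal, Il10 remained lower in Fcmr-/- cells. At the Fcmr+/+ cluster sizes the Fcmr-/- levels within clusters gave 56.9 CPM, against the 116 CPM observed in Fcmr+/+ cells, a log2 ratio of -1.02. At the Fcmr-/- cluster sizes, the Fcmr+/+ levels gave 76.4 CPM against 49.6 CPM, a log2 ratio of -0.61. The latter ratio gives cluster 1, with 33.6% of Fcmr-/- UMIs, much weight. The Fcmr+/+ level of that cluster rests on 40 UMIs in 92 cells.

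Il10ra was highest in Fcmr+/+ cells of clusters 8 and 2, at 71.3 CPM (62.0 to 81.7) and 69.1 CPM (65.9 to 72.5), and lowest in cluster 9, at 34.0 CPM (26.3 to 43.3). In Fcmr-/- cells cluster 2 led with 65.8 CPM (61.4 to 70.4) and cluster 9 was again last with 27.2 CPM (23.6 to 31.2). By CPM the Fcmr-/- value was the lower in each of 10 clusters, with log2 ratios from -0.45 to -0.00. The intervals overlapped in 9, and the exception was cluster 1, at 62.6 CPM (52.0 to 74.7) in Fcmr+/+ and 45.5 (43.5 to 47.6) in Fcmr-/- cells. By thinned share of cells, Il10ra was higher in Fcmr-/- cells in clusters 3 and 4, and the intervals overlapped in all 10 clusters, cluster 1 included.

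Il10rb, the shared chain, varied least among states, by 1.65-fold in Fcmr+/+ and 1.63-fold in Fcmr-/- cells. By CPM it was lower in Fcmr-/- cells in clusters 1, 2 and 6, higher in clusters 4, 5, 8, 9 and 10, and overlapping in clusters 3 and 7. By thinned share of cells, its intervals lay apart only in clusters 8 and 10, where Fcmr-/- cells had the higher share. Its log2 ratios ran from -0.26 in cluster 1 to 0.49 in cluster 8, where it stood at 141 CPM (128 to 156) in Fcmr+/+ and 198 (189 to 208) in Fcmr-/- cells.

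Maf was highest in cluster 7 in both libraries, at 574 CPM (565 to 583) in Fcmr+/+ and 658 (637 to 680) in Fcmr-/- cells. It was lowest in cluster 9, at 151 CPM (134 to 169) and 207 (197 to 217). By CPM, Maf was higher in Fcmr-/- cells in clusters 2, 5, 6, 7, 8 and 9. Cluster 5 showed the widest gap, at 383 CPM (373 to 393) against 532 (515 to 549). Clusters 1, 4 and 10 overlapped. By thinned share of cells, Maf was higher with intervals apart in cluster 5 alone, at 81.6% in Fcmr+/+ and 88.5% in Fcmr-/- cells. That share was lower in cluster 3, at 83.3% and 75.8%, and overlapped in the other clusters.

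Cluster 3 was the one state in which both Il10 and Maf were lower in Fcmr-/- cells. Maf there stood at 372 CPM (363 to 382) in Fcmr+/+ and 315 (305 to 326) in Fcmr-/- cells, a log2 ratio of -0.24. In clusters 2, 5, 6, 7 and 9, Il10 was lower and Maf higher by CPM. By thinned share of cells, with intervals apart, this held in cluster 5 alone. In cluster 8 both were higher by CPM.

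**Figure D3:**
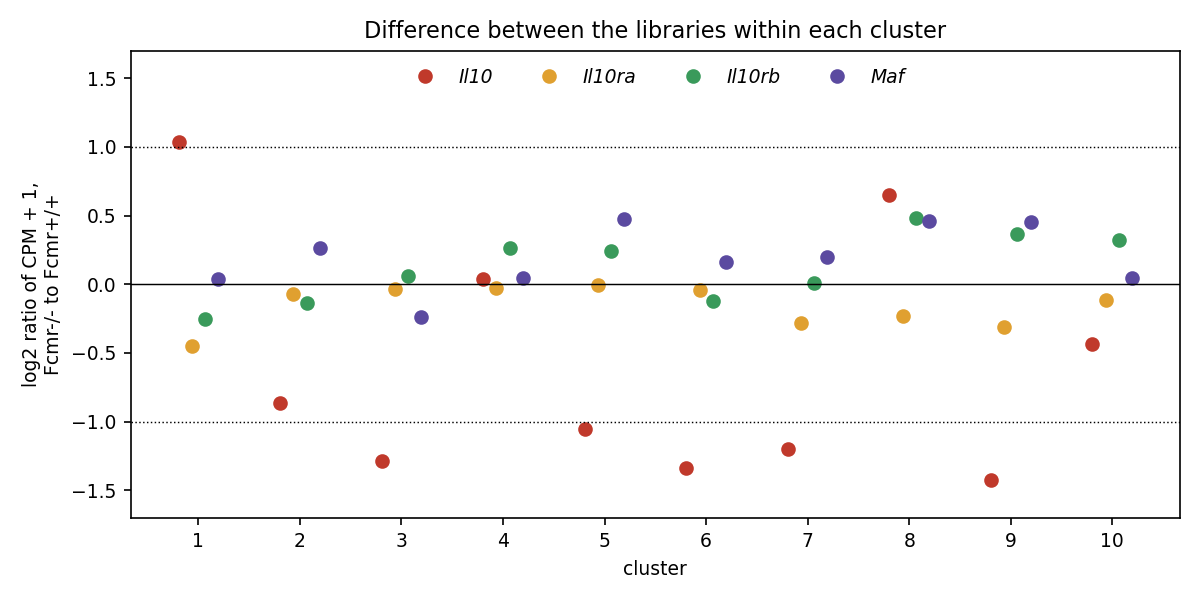
Log2 ratio of CPM + 1, Fcmr-/- to Fcmr+/+ (vertical axis), of the 4 genes within each of 10 clusters (horizontal axis), with 1 point per gene and dotted lines at 2-fold in either direction. Il10 lies below the lower line in 5 clusters and above the upper line in cluster 1, at 1.04, while Il10ra, Il10rb and Maf stay between -0.45 and 0.49.

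Cells with Il10 had Maf somewhat more often than cells without it, in both libraries. In thinned Fcmr+/+ cells, Maf was found in 86.5% of cells with an Il10 UMI (84.6 to 88.2) and 78.1% of the others (76.9 to 79.2). In Fcmr-/- cells the shares were 86.9% (84.5 to 89.0) and 80.6% (79.6 to 81.6). Within clusters, cells with both were 1.05 times as many in the Fcmr+/+ and 1.06 times as many in the Fcmr-/- library as the product of the single shares gives.

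Read the other way, Il10 was found in a smaller share of cells without Maf. In Fcmr+/+ cells an Il10 UMI was present in 15.4% of cells with 0 Maf UMIs (13.4 to 17.5), in 23.4% with 1 (21.0 to 25.8) and in 24.8% with 6 or more (21.8 to 28.1). In Fcmr-/- cells the shares were 9.20% (7.70 to 10.9), 13.4% (11.7 to 15.4) and 13.7% (11.7 to 15.9). Beyond 1 Maf UMI the shares in each library overlapped.

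At every Maf count the Fcmr-/- share of cells with Il10 was the lower, with intervals apart. Without clusters 1 and 8, it was again lower at each Maf count, from 9.04% against 16.3% with 0 Maf UMIs to 16.3% against 25.5% with 6 or more. Cells with different Maf counts also come from different clusters in different proportions.

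**Figure D4:**
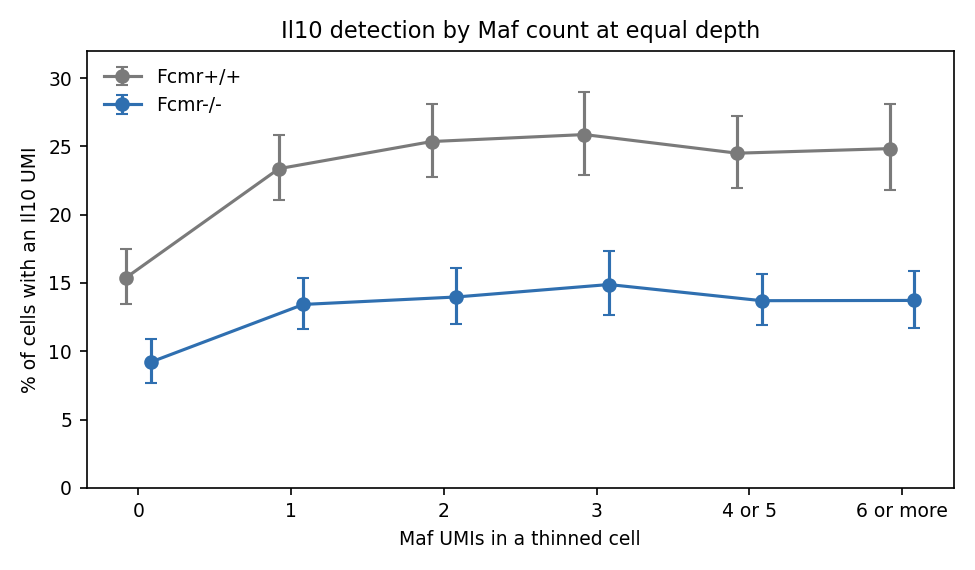
Share of thinned cells with an Il10 UMI (%, vertical axis) by their number of Maf UMIs (horizontal axis) for Fcmr+/+ (gray) and Fcmr-/- (blue) cells, with exact 95% Clopper-Pearson intervals of counting error. The share goes from 15.4% to 23.4% in Fcmr+/+ and from 9.20% to 13.4% in Fcmr-/- cells between 0 and 1 Maf UMI, then stays level, with the Fcmr-/- points below at each count.

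Of the receptor chains, Il10ra went with Il10 in the Fcmr-/- library. Il10ra was found in 27.7% of Fcmr+/+ cells with Il10 (25.4 to 30.1) and 27.4% of those without (26.1 to 28.7). In Fcmr-/- cells the shares were 29.5% (26.6 to 32.5) and 24.6% (23.5 to 25.7), and the intervals did not overlap. Il10rb was found in 65.9% and 63.9% of Fcmr+/+ cells and in 65.7% and 66.3% of Fcmr-/- cells with and without Il10, and overlapped in each library. Within clusters, cells with Il10 and Il10ra were 1.04 times as many in Fcmr+/+ and 1.16 times as many in Fcmr-/- cells as the product of the single shares gives, and for Il10rb the factors were 1.01 and 1.00.

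Both receptor chains were found together in 17.8% of thinned Fcmr+/+ cells (16.9 to 18.8) and 17.2% of Fcmr-/- cells (16.3 to 18.1). Il10 and both chains of its receptor were found in the same cell in 4.16% of Fcmr+/+ (3.68 to 4.69) and 2.61% of Fcmr-/- cells (2.26 to 3.01). Among cells with Il10, both chains were found in 18.2% of Fcmr+/+ (16.3 to 20.3) and 20.1% of Fcmr-/- cells (17.5 to 22.8), with overlapping intervals. All 4 transcripts were found together in 226 Fcmr+/+ and 170 Fcmr-/- cells.

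Across states and libraries, Il10 and Maf had little in common in rank. Over 19 groups of cells, 1 per cluster and library with at least 100 cells, Spearman's correlation between them was 0.05. It was 0.53 over the 9 Fcmr+/+ groups and -0.13 over the 10 Fcmr-/- groups. The correlation was -0.12 between Il10 and Il10ra, -0.12 between Il10 and Il10rb, 0.29 between Il10ra and Maf and 0.35 between Il10rb and Maf. Within the libraries it was 0.72 over Fcmr+/+ and 0.08 over Fcmr-/- groups for Il10rb and Maf, and 0.35 and -0.33 for Il10 and Il10rb. Groups of the same library share its depth and its free RNA, so these are descriptions of the 19 groups.

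Of 5255 genes with at least 20 CPM, those most like Il10 in rank were Tnfsf9, which encodes the ligand of the costimulatory receptor 4-1BB, at 0.83, F13a1 at 0.76 and Tnfaip3, a brake on NF-κB signaling, at 0.75. Stx6 and Anxa11 followed, both at 0.72. Tnfsf9 stood at 189 CPM in Fcmr+/+ and 92.9 CPM in Fcmr-/- cells, and Tnfaip3 at 314 and 247 CPM. Those most like Maf were Rab32 at 0.94, Frmd4b, Ppm1h and Coro7 at 0.93 and Tep1 at 0.92, with log2 ratios between -0.07 and 0.20.

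The other ligands of the family were near absent. Il19 had 4 and 3 UMIs and Il20 had 7 and 0 in Fcmr+/+ and Fcmr-/- cells, and Il24 had 0 in both, where 0 allows up to 3. Of 5 ligand genes listed, Il10 alone reached 5 CPM, and of 7 receptor genes of the family, Il10ra and Il10rb did.

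Of 6 genes listed for signaling from the receptor, 0 were at least 2-fold lower in Fcmr-/- cells. The kinase gene Jak1 stood at 138 CPM in Fcmr+/+ and 144 in Fcmr-/- cells. Stat3, the main transducer of IL-10, stood at 116 and 103 CPM, and Socs3, a feedback inhibitor that Stat3 switches on, at 189 and 151 CPM.

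Genes known to be raised by IL-10 in macrophages went in both directions. Of 13 listed, 12 were measured at 5 CPM, 8 were lower and 4 higher, and the median log2 ratio was -0.10. Over all 8701 genes, 4306 were lower and 4395 higher. Only Cd163, the hemoglobin scavenger receptor, was past 2-fold, at 26.5 CPM (25.6 to 27.4) in Fcmr+/+ and 9.35 (8.82 to 9.90) in Fcmr-/- cells. Hmox1, heme oxygenase, stood at 2998 and 1721 CPM. Etv3, a repressor, stood at 50.6 and 36.2 CPM, while Il1rn, the interleukin-1 receptor antagonist, stood higher in Fcmr-/- cells, at 314 and 409 CPM. All are levels over whole libraries, and the part of cluster sizes in them was not tested.

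Genes known to be lowered by IL-10 did not move as a block. Of 13 listed, 11 were measured, 4 were lower and 7 higher in Fcmr-/- cells, and the median log2 ratio was 0.27. Nos2, inducible nitric oxide synthase, stood at 8.67 and 40.4 CPM, and Irg1, which makes itaconate, at 19.0 and 72.8 CPM, the 2 genes past 2-fold. Ptgs2, cyclooxygenase-2, stood at 226 and 423 CPM. Tnf went the other way, at 259 CPM (256 to 262) in Fcmr+/+ and 134 (132 to 136) in Fcmr-/- cells, and Cxcl2 stood at 3473 and 3456 CPM. These too are levels over whole libraries, and the part of cluster sizes in them was not tested.

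Regulators of Il10, Maf included, were within 2-fold. All 17 listed were measured, 10 were lower and 7 higher, and the median log2 ratio was -0.02. Over all 8701 genes, 4306 were lower and 4395 higher. Bhlhe40, a repressor of Il10, stood at 124 and 91.1 CPM. Prdm1, which encodes Blimp-1, stood at 40.6 and 54.7 CPM, Nr4a1 at 293 and 220.3 CPM, and Nfil3 at 109 and 121 CPM. Of 10 kinase genes upstream of Il10, 9 were measured, 0 were past 2-fold and the median was -0.10. The widest gap among them was in Map3k8, which links Toll-like receptors to ERK, at 47.5 CPM (46.3 to 48.7) and 27.4 (26.5 to 28.3), a log2 ratio of -0.77.

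The small Maf genes, whose products lack an activation domain of their own, were lower in Fcmr-/- cells where Maf was not, each by less than 2-fold. Maff stood at 34.0 and 19.9 CPM, Mafg at 90.4 and 77.1 CPM, and Mafk at 17.7 and 12.5 CPM.

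Genes of resident-type macrophages, a program that c-Maf takes part in, were also lower where Maf was not. Of 13 listed, 12 were measured, 11 were lower and 1 higher in Fcmr-/- cells, and the median log2 ratio was -0.46. Over all 8701 genes, 4306 were lower and 4395 higher. Only Cd163, given above, was past 2-fold. Mrc1, the mannose receptor, stood at 907 and 627 CPM, Folr2, a folate receptor, at 242 and 165 CPM, and Cbr2 at 209 and 121 CPM. Gas6, the bridge to MerTk, stood at 263 and 144 CPM, and C1qa, a complement gene, at 2260 and 2273 CPM. These are levels over whole libraries. Cbr2 and Gas6 are among the leading genes of cluster 7, which held 16.7% of Fcmr+/+ and 3.86% of Fcmr-/- cells. The part of cluster sizes in these values was not tested.

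Il10 and Fcmr are neighbors, so genes around them were read in the same way. Of 18 genes listed there, 7 were measured, and Il10 was the 1 gene at least 2-fold lower, with 0 higher. Mapkapk2, a kinase gene on the far side of Il10, stood at 130.3 CPM (128 to 132) in Fcmr+/+ and 119 (118 to 121) in Fcmr-/- cells. Ikbke stood higher in Fcmr-/- cells, at 25.0 and 37.9 CPM, and Srgap2 at 55.2 and 70.8 CPM. Fcmr had 7 UMIs in Fcmr+/+ and 6 in Fcmr-/- cells, too few to check the genotype. A part of the altered Fcmr allele or of DNA linked to it in the Il10 value was not tested.

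**Figure D5:**
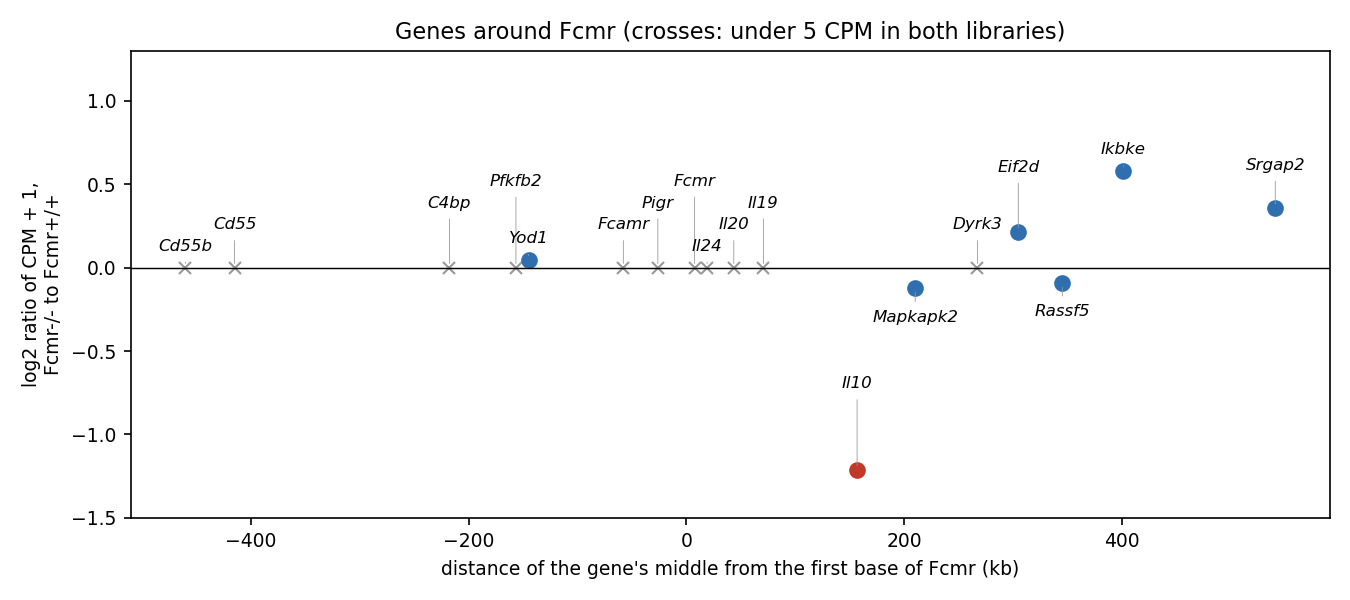
Log2 ratio of CPM + 1, Fcmr-/- to Fcmr+/+ (vertical axis), of genes around Fcmr by the distance of each gene's middle from the first base of Fcmr (kb, horizontal axis), with Il10 in red, other genes measured at 5 CPM in blue, and genes under 5 CPM in both libraries as gray crosses that carry no ratio. Il10 lies at -1.21, and the other 6 measured genes lie between -0.12 and 0.58.

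Around Il10rb on chromosome 16, 7 of 8 listed genes were measured, 0 were past 2-fold, and the median log2 ratio was 0.06. Ifnar2, the interferon receptor gene that ends before Il10rb starts, stood at 123 and 108 CPM. Ifnar1 stood at 94.2 and 108 CPM, and Ifngr2 at 102 and 105 CPM.

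Markers of the sort and of other cells were set beside these values. Of 7 macrophage genes, 7 were measured, 0 were past 2-fold and the median log2 ratio was 0.09, with Mertk at 62.8 and 48.7 CPM and Fcgr1, which encodes CD64, at 250.4 and 394 CPM in Fcmr+/+ and Fcmr-/- cells. T and NK cells can make IL-10 too. Of 9 T and NK genes, 0 reached 5 CPM, their sum was 2.97 and 17.3 CPM, and 3.27% and 3.09% of cells had any such UMI. Gzmb stood at 0.078 and 4.97 CPM, Nkg7 at 0.25 and 4.04 CPM and Cd3g at 0.22 and 2.56 CPM, all higher in Fcmr-/- cells. Cd4, which macrophages can also express, made up 255 of the UMIs of the list in Fcmr+/+ and 191 in Fcmr-/- cells. In cells without any of these UMIs the log2 ratio of Il10 was -1.23. Of 7 dendritic cell genes, 1 was measured, and the list summed to 8.87 and 14.0 CPM. Of 4 B cell genes, 1 was measured, Cd79b at 12.0 and 10.1 CPM. Melanoma genes summed to 40.6 and 64.1 CPM, and the 4 of 6 that were measured had a median log2 ratio of 0.56; their part in the other values was not tested.

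Genes that respond to tissue dissociation moved with Il10 in part. Of 9 listed, 1 was at least 2-fold lower and 0 higher in Fcmr-/- cells, with a median log2 ratio of -0.16. Egr1, an immediate-early gene, stood at 201 CPM (199 to 204) in Fcmr+/+ and 72.8 (71.3 to 74.3) in Fcmr-/- cells, and Jun at 483 and 296 CPM, while Fos stood at 1240 and 1249 CPM. In the 2914 Fcmr+/+ and 5751 Fcmr-/- cells without an Egr1 UMI, Il10 was also lower in Fcmr-/- cells, at a log2 ratio of -0.96. These cells were chosen without thinning, so the choice also depends on depth, with which the Il10 ratio changed. The parts of depth and of dissociation in this value were not tested. Among 9 listed genes, 6 were lower and 3 higher.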

How the data were processed

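For 1 library of each genotype, the authors deposited a matrix of raw UMI counts. Cell Ranger had made it from reads aligned to GRCm38, and the submitters' processing notes also name Seurat 2.1.0. The counts were used as deposited, with no normalization before summing. Cells with 200 to 7000 genes and at most 30% mitochondrial UMIs were kept, 14351 of 14409 cells. Genes seen in 3 or more cells were kept for clustering, while levels and thinning used all 27998 listed genes. The kept libraries held 128408544 (Fcmr+/+) and 124630621 (Fcmr-/-) UMIs. Where several identifiers shared a symbol, the one with the most UMIs was used. Groups came from the genotype labels. The members, gene lists and comparisons were chosen with earlier results of these data known, and the lists come from general knowledge.

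Clusters came from Seurat 5.3.0 in R 4.3.3 with the study's published settings, on 1334 of 1336 variable genes, since Il10 and Maf were left out. The number of clusters and their numbering differ from the study's, and no match between them was made. A cluster was compared where it held at least 50 cells of each library. Genes counted as past 2-fold had at least 5 CPM in either library. Sums, thinning and exact intervals were computed in Python 3.11.15 with numpy 2.4.6, scipy 1.17.1 and pandas 2.3.3, figures were drawn with matplotlib 3.10.9, and the calculations were tested on simulated data. The genotypes were not tested against each other, since each had 1 library. No doublet caller was used, and 1 alternative leaves out the 5% of cells with the most UMIs. The text names the 4 genes, list genes with at least 5 CPM by role, genes around Fcmr, the 5 genes most like Il10 and the 5 most like Maf by rank over clusters, and genes leading a cluster, at 50 CPM or more there. Positions are from GENCODE on GRCm38. Maf and its antisense gene have separate counts. Whether the counting used strand is not given in the sources used here, so the assignment of UMIs where these genes overlap could not be checked. Some genes of the lists are not reported here.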

Additional observations from a re-analysis of the deposited data

Results flagged for a closer look

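In 2 clusters Il10 differed between the libraries in the opposite direction to the 7 clusters where it was lower in Fcmr-/- cells. Its log2 ratio of Fcmr-/- to Fcmr+/+ was 1.04 in cluster 1, led by Iigp1 and Cxcl9, and 0.65 in cluster 8, led by Rsad2 and Ifit genes. The difference between these clusters and the others was not tested, since each genotype had 1 library. The Fcmr+/+ values rest on 40 UMIs in 92 cells of cluster 1 and 89 UMIs in 234 cells of cluster 8.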

How the results depend on the processing

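Of 84 values under other settings and added ones, 54 stayed within the counting interval of the value given. For counts of clusters, staying meant within 1.5 times of it. Another 28 moved further, and 2 were counted as changed in direction, the shares of cells with Il10rb and with Maf. The interval of the difference between libraries left out 0 for both, at 0.23 to 3.48 and 0.091 to 2.79 points. The intervals of the single libraries overlapped for both. A change of direction was counted only for a log2 ratio past 2-fold, or for a difference in shares whose interval left out 0. The excess of Il10rb among Fcmr-/- cells with Il10, -0.56 points, was therefore not counted. It was 4.70 points without thinning and 1.92 with Il10 at 2 UMIs or more. The log2 ratio of Il10, -1.21 as given, was -1.07 as a mean over cells, -1.18 without the 5% of cells with the most UMIs and -1.05 in thinned cells. Among alternatives chosen after seeing the data, it was -0.96 in cells with no Egr1 UMI, -1.08 in cells with 10000 to 20000 UMIs and -1.15 without clusters 1 and 8. For Il10ra it was -0.18 in thinned cells and -0.16 in cells with 10000 to 20000 UMIs. For Il10rb it was 0.078 as a mean over cells, 0.051 in thinned cells and 0.10 with no Egr1 UMI. For Maf it was 0.075 without the 5% of cells with the most UMIs, 0.13 in thinned cells, 0.21 with no Egr1 UMI and 0.0046 without clusters 1 and 8. The difference in share of cells with Il10, in percentage points, was -15.0 without thinning, -7.67 at 3000 UMIs and -6.85 for cells with at least 2 UMIs. That of Il10ra was -8.64 without thinning and -0.24 at 3000 UMIs. Without thinning the shares of Il10rb and Maf turned to -2.28 and -2.38 points, where Fcmr+/+ cells were deeper. At equal cluster sizes the log2 ratio of Il10 was -0.61 with Fcmr-/- sizes, -1.19 at resolution 0.4 and -1.19 with genes scaled within each library. Cells with Il10 exceeded cells without it in the share with Il10ra by 8.91 points in Fcmr+/+ and 11.5 in Fcmr-/- cells without thinning, and in the share with Il10rb by 8.06 and 4.70 points, where the Fcmr-/- value with thinning was -0.56. For Maf in Fcmr-/- cells the excess was 3.49 points when Il10 was taken at 2 UMIs or more. Apart from thinning, where depth is what the setting changes, the cause of these shifts was not tested. No paired analysis was possible because each genotype had 1 library and no result comes from a test. No library could be left out for the same reason.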
